A study of Mus musculus with 34 samples.

Results

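The carboxylesterase family was followed in livers of mice before and after PHx (partial hepatectomy). The members were the rows of the gene count table named *Ces1c*, *Ces1d*, *Ces1e*, *Ces1f*, *Ces1g*, *Ces2a*, *Ces2b*, *Ces2e*, *Ces3a* and *Ces3b*, that is 10 of the 78298 genes in the table and 10 of its 20 *Ces* genes. All 10 passed the filter on low counts, with 14980 genes tested in all.

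Livers came from adult male mice on a C57/Bl6 background that carried floxed *Sirt1*. In SIRT1intKO mice, Cre driven by the Villin promoter removes *Sirt1* from the intestinal epithelium, whereas the WT mice are littermates with the same floxed alleles and no Cre. Livers were taken from unoperated mice (0 h), with 6 WT and 6 SIRT1intKO libraries, at 6 h after removal of the left lateral and median lobes, with 6 and 5 libraries, and at 24 h, with 4 and 7. The 0 h livers are those of unoperated mice, so the loss of liver tissue cannot be told apart from anything else that goes with the operation. The library names of all 0 h livers also come from a separate, higher run of numbers than those of all livers after PHx. The labels do not say what this numbering stands for. Anything that goes with it cannot be told apart from the change after PHx. *Sirt1* is deleted in the intestine only, so its level in these livers does not check the genotype.

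Carboxylesterases are serine hydrolases, most of them held in the endoplasmic reticulum, that cleave ester bonds in drugs, toxins and lipids. In liver the Ces1 group includes enzymes that hydrolyse stored triglyceride, which feeds the assembly of very low density lipoprotein (VLDL), and the Ces2 group includes drug esterases with activity on acylglycerols. In rodents the family has been duplicated into large gene clusters, so a single human gene often has several mouse counterparts.

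Libraries held 14892122 to 23480492 expected counts, and levels are given as CPM, counts scaled to a common library size, after TMM scaling, which corrects for differences in library composition. A member was called when its adjusted p in edgeR's quasi-likelihood test was under 0.05 and its absolute log2 fold change was over 1. All 8 hepatocyte markers (such as *Alb* and *Cps1*) were detected in every group, and their summed level ranged from 42334 to 95854 CPM. Of 6 intestinal markers, the sucrase gene *Sis* was at 0 in all 6 groups. Others of the list were detected, and the list summed to 23.9 to 308.0 CPM, with the highest library in SIRT1intKO livers at 24 h. In bulk tissue, fewer hepatocytes and less carboxylesterase mRNA per hepatocyte cannot be told apart.

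The 10 members together held 0.624% ± 0.0330 (SD, n = 6) of all counts in WT livers at 0 h and 0.629% ± 0.0545 (n = 6) in SIRT1intKO livers. Compared per length, as CPM per kilobase of the longest coding transcript, the order at 0 h was led by *Ces1c* and *Ces3a*. *Ces1c* encodes the esterase that mouse liver secretes into plasma, and its level in WT livers was 1021 ± 121 CPM per kilobase (n = 6). *Ces3a* stood at 1020 ± 150 on the same scale, and the ranges of these 2 genes overlapped. Then came *Ces3b* at 230.4 ± 46.5, *Ces1d* at 230.3 ± 42.3, *Ces1f* at 198.3 ± 29.6 and *Ces2a* at 169.1 ± 9.03, with overlapping ranges from each gene to the next. *Ces1e* at 74.5 ± 18.4, *Ces2e* at 49.6 ± 13.1 and *Ces1g* at 44.2 ± 11.1 overlapped in the same way, and no library of this lower set reached the *Ces2a* range. *Ces2b* was at 1.13 ± 0.824 CPM per kilobase, below every other member in all 6 libraries. In SIRT1intKO livers at 0 h *Ces3a* was first at 1162 ± 128 and *Ces1c* next at 943 ± 112 (n = 6), again with overlapping ranges.

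Near-identical copies limit these values. Salmon shares out reads that match several transcripts, and 42.6% of the 31-base words of the longest coding *Ces3a* transcript in GENCODE vM21 also occur in *Ces3b*. For *Ces3b* the shared part was 36.1%. Of the *Ces1c* transcript, 26.6% of the words occur in another *Ces* gene, mostly *Ces1b*, which is not a member, and the expected counts of *Ces1c*, *Ces3a* and *Ces3b* were not whole numbers in 34 of 34 libraries. How the levels of these 3 genes are split with their copies is therefore uncertain. As assigned by Salmon, mean expected counts were 20346 for *Ces1c* beside 538.8 for *Ces1b*, and 21084 for *Ces3a* beside 5263.9 for *Ces3b*. The other 7 members shared 4.91% to 12% of their words with other *Ces* genes, and *Ces1g* was a whole number in every library.

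Promoters are shown for 3 Ces1 and 2 Ces2 members, because each set shared a run of letters. RefSeq (GRCm38.p6) gave a promoter for 6 members, *Ces1c*, *Ces1e*, *Ces1g*, *Ces2a*, *Ces2e* and *Ces3b*, all on chromosome 8. The 250 bases before the start are printed 5′ to 3′ on the strand of the gene, minus for the Ces1 genes and plus for the Ces2 genes. Capitals mark TTATGTAA, the letters bound by PAR bZIP factors such as DBP, and CAGAAGGACTTCAGATG, the longest run (17 bases) that the promoters of *Ces2a* and *Ces2e*, which are paralogs, have in common.
Ces1c: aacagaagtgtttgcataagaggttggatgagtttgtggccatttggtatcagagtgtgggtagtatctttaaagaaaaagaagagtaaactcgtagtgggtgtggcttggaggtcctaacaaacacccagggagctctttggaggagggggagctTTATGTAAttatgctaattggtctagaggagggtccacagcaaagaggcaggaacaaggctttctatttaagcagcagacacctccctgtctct
Ces1e: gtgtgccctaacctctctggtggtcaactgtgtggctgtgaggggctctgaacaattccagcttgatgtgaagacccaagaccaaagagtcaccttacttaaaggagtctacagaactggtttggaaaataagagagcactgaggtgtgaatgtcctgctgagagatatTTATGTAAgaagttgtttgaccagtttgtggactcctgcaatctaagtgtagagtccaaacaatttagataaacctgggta
Ces1g: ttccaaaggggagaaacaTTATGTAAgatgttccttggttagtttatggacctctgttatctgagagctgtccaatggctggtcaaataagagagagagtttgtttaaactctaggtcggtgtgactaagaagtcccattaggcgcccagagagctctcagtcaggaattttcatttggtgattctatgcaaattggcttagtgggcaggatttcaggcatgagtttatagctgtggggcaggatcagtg
Ces2a: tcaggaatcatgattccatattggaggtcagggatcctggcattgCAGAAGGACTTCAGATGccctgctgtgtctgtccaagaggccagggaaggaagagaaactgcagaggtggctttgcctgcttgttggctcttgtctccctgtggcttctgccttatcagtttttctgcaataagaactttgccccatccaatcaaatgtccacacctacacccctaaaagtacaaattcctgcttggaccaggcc
Ces2e: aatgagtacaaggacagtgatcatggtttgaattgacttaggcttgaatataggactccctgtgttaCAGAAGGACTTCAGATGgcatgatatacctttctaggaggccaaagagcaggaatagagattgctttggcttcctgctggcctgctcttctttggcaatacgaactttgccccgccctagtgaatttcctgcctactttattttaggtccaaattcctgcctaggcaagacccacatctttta

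TTATGTAA began 94 bases before the start in *Ces1c*, 81 in *Ces1e* and 232 in *Ces1g*. It occurred in 3 of the 6 member promoters, all 3 of them Ces1, in 2 of the 10 promoters of other *Ces* genes and, with both strands searched, in 0.819% of the 32851 mouse promoters of the same length. CAGAAGGACTTCAGATG began 205 bases before the start in *Ces2a* and 183 in *Ces2e*, and occurred in 2 of all the promoters, these 2. No match of one motif overlapped a match of the other, and TTATGTAA was chosen after the sequences had been read. Of 5 other motifs searched on both strands, CCAAT was in 4 of the 6 member promoters and 33.8% of all, TATAAA in 2 and 12.4%, AGGTCA in 1 and 14%, while CAAAGTCCA and TTGCGCAA were in 0 of the 6 and in 0.384% and 0.164% of all. A match describes these letters only, and no binding was measured.

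At 6 h after PHx, 8 of 10 members had fallen in WT livers and 0 had risen, against 8.4% of all tested genes called lower. In SIRT1intKO livers 5 of 10 had fallen and 0 had risen, against 8.7% of all genes called lower. The median log2 fold change of the members was -1.61 in WT and -1.17 in SIRT1intKO livers, and that of all tested genes was 0.02 and 0.01. Called in both genotypes were *Ces1d*, *Ces1g*, *Ces2b* and *Ces3b*. The 2 genotypes were not shown to differ at 6 h, because the interaction term, the difference between genotypes in the change from 0 h, called 0 of 10 members. All 10 fitted changes were below 0 in each genotype. The adjusted p alone was under 0.05 for 10 members in WT, against 37.4% of all genes, and for 6 in SIRT1intKO livers, against 38.4%.

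At 24 h, 10 of 10 members had fallen in WT livers, against 7.4% of all tested genes called lower. In SIRT1intKO livers 8 of 10 had fallen, against 11.1% of all genes, and *Ces2a* and *Ces2e* were not called. The median log2 fold change of the members was -2.44 in WT and -2.58 in SIRT1intKO livers, beside 0.02 and 0.04 for all genes. As a sum, the family stood at 46.5% of its 0 h CPM at 6 h in WT and 49.6% in SIRT1intKO livers. By 24 h the sum was at 29.5% and 24.3% of the 0 h level, and it held 0.185% ± 0.0877 (n = 4) and 0.165% ± 0.0490 (n = 7) of all counts. The plot of log2 CPM by library shows these levels gene by gene.

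**Figure D1:**
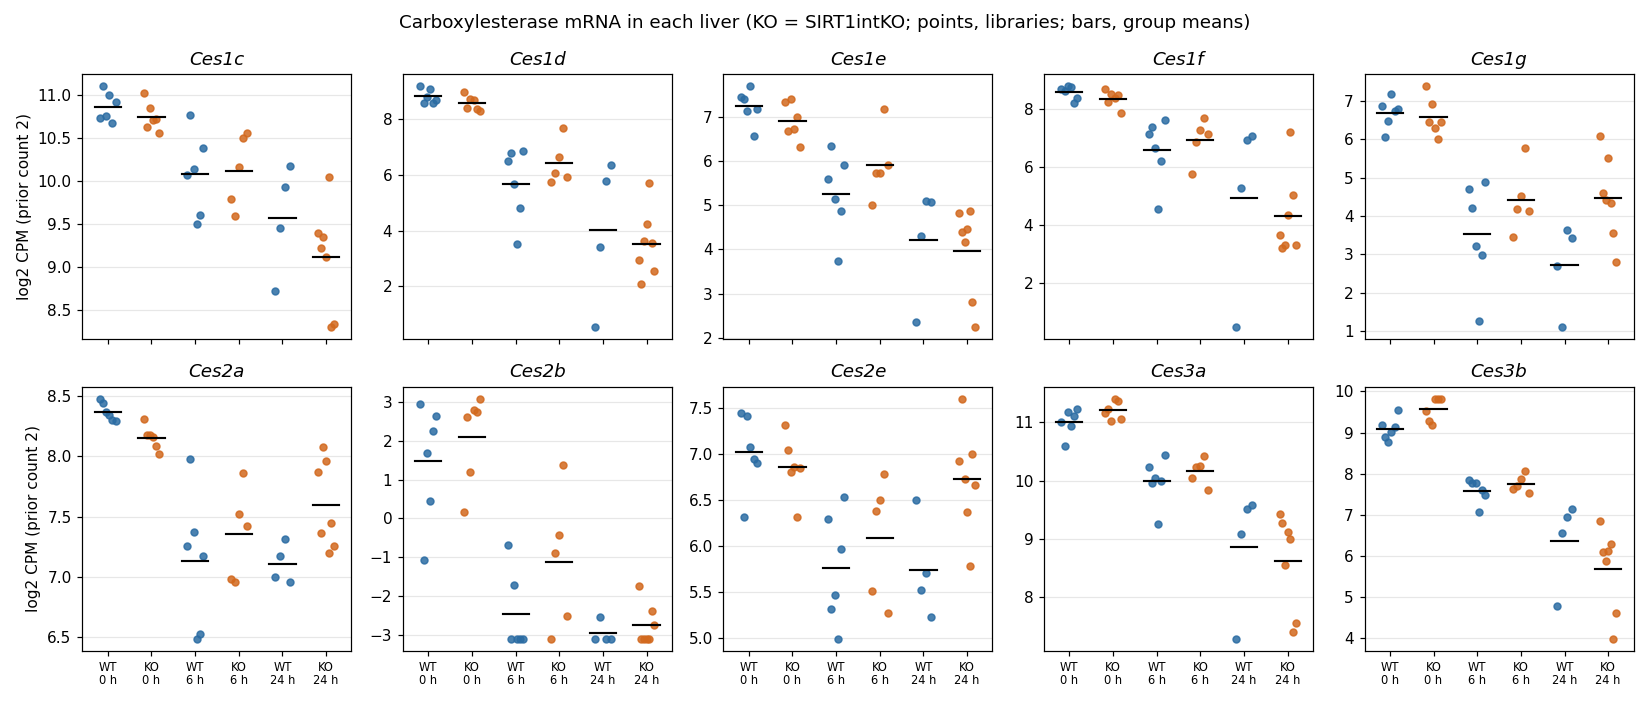
Level of each of the 10 carboxylesterase members (y axis, log2 CPM with a prior count of 2) in the 6 groups of livers (x axis; WT blue, SIRT1intKO, written KO, orange); points are libraries and bars group means. Both genotypes start together at 0 h. At 24 h *Ces1d* spans 1.35 to 82.5 CPM in WT and 4.11 to 52.0 CPM in SIRT1intKO livers, far under every 0 h liver, whereas SIRT1intKO points of *Ces2e* at 24 h overlap the 0 h range.

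*Ces1d* encodes the triglyceride hydrolase that mobilises stored fat for VLDL in hepatocytes. Its level in WT livers at 0 h ran from 385 through a median of 433 to 587 CPM (n = 6), and in SIRT1intKO livers from 319.7 through 376.9 to 509.7 CPM (n = 6). At 6 h the WT range was 11.4 to 115.3 CPM with a median of 71.1, and the 5 SIRT1intKO libraries held 54.2, 66.6, 99.6, 208.5 and 60.9 CPM. At 24 h the 4 WT libraries held 1.35, 10.7, 55.7 and 82.5 CPM, and the 7 SIRT1intKO libraries ran from 4.11 through 11.6 to 52.0 CPM. No library after PHx reached the lowest 0 h value of its genotype. The log2 fold change at 24 h was -3.62 ± 0.78 (SE, n = 4 and 6, adjusted p = 0.000687) in WT, a 12.3-fold fall. In SIRT1intKO livers it was -4.60 ± 0.64 (n = 7 and 6, adjusted p = 1.16e-06), a 24.2-fold fall. Without WT replicate 4 at 24 h the WT value was -4.35, and without SIRT1intKO replicate 5 at 24 h the SIRT1intKO value was -5.28. WT replicate 1 at 24 h was the lowest of its group in 7 of the 10 members.

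*Ces1f* is another triglyceride hydrolase of the Ces1 group. At 0 h it ran from 295 to 439 CPM in WT and from 229.6 to 410 CPM in SIRT1intKO livers (n = 6 each). At 24 h the WT libraries held 1.29, 38.3, 122.1 and 133.9 CPM, and 6 of the 7 SIRT1intKO libraries lay between 9.03 and 32.5 CPM, with replicate 5 at 148 CPM. The groups after PHx did not overlap with 0 h in either genotype. The log2 fold change was -1.72 ± 0.65 (adjusted p = 0.0363) at 6 h in WT and -1.31 ± 0.68 (adjusted p = 0.129) in SIRT1intKO livers. At 24 h it was -2.37 ± 0.78 (adjusted p = 0.0181) in WT and -3.26 ± 0.65 (adjusted p = 0.000129) in SIRT1intKO livers. The call at 24 h in WT rested on replicate 2, without which the value was -2.16 and the adjusted p 0.0730 in edgeR, and the call at 6 h in WT was lost in 6 of the 34 fits that left out 1 library. With only the groups of the comparison in the fit the adjusted p at 24 h in WT was 0.0580 in edgeR, so that call was lost, and at 6 h in SIRT1intKO livers it was 0.00147, so *Ces1f* was called there. Without SIRT1intKO replicate 5 the value at 24 h in SIRT1intKO livers was -4.41.

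*Ces1g* encodes a liver esterase with a role in lipid handling. At 0 h its range was 66.0 to 144.4 CPM in WT and 64.0 to 166.7 CPM in SIRT1intKO livers (n = 6 each). At 6 h it was 2.27 to 29.7 CPM in WT, with a median of 13.8, and 10.8, 17.96, 22.8, 54.4 and 17.6 CPM in the 5 SIRT1intKO libraries. At 24 h the WT libraries held 6.39, 2.06, 12.3 and 10.6 CPM, while the SIRT1intKO libraries ran from 6.91 through 21.3 to 68.3 CPM. The highest SIRT1intKO library at 24 h overlapped the 0 h range, and no WT library did. In WT livers the fall was 6.82-fold at 6 h (log2 fold change -2.77 ± 0.52, adjusted p = 9.08e-05) and 13.4-fold at 24 h (-3.75 ± 0.64, adjusted p = 6.12e-05). In SIRT1intKO livers it was 4.07-fold at 6 h (-2.02 ± 0.53, adjusted p = 0.00333) and 3.57-fold at 24 h (-1.83 ± 0.47, adjusted p = 0.00180).

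*Ces1c* fell by less. WT livers ran from 1625.5 to 2191 CPM at 0 h (median 1828, n = 6) and held 423, 701, 972 and 1157 CPM at 24 h. SIRT1intKO livers ran from 1506 to 2074 CPM at 0 h and from 317.8 through 599 to 1054.5 CPM at 24 h (n = 7). The ranges at 24 h did not overlap those at 0 h. The fall at 24 h was 2.29-fold in WT (log2 fold change -1.20 ± 0.29, adjusted p = 0.00200) and 2.89-fold in SIRT1intKO livers (-1.53 ± 0.24, adjusted p = 6.47e-06). At 6 h it was not called, at -0.72 ± 0.25 in WT and -0.59 ± 0.26 in SIRT1intKO livers. Without WT replicate 1 the value at 24 h in WT was -0.98 and not called. *Ces1e* encodes egasyn, which holds β-glucuronidase in the endoplasmic reticulum, and it fell 6.68-fold at 24 h in WT (log2 fold change -2.74 ± 0.53, adjusted p = 0.000224) and 6.72-fold in SIRT1intKO livers (-2.75 ± 0.42, adjusted p = 4.89e-06). At 6 h *Ces1e* was called in WT (-1.81 ± 0.43) and not in SIRT1intKO livers (-0.85 ± 0.45), where replicate 4 stood at 145.3 CPM and the other 4 at 32.002 to 59.5 CPM. Without that library *Ces1e* was called at -1.36 (adjusted p = 0.0225 in edgeR). *Gusb*, the gene for β-glucuronidase, was not called at either time, with log2 fold changes of 0.28 and 0.29 at 6 h and of 0.03 and 0.25 at 24 h in WT and SIRT1intKO livers.

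The Ces3 pair is among the most abundant members. *Ces3a* ran from 1556 to 2417 CPM in WT livers at 0 h (median 2131, n = 6), from 610 to 1384.5 CPM at 6 h, and held 155.4, 542, 732 and 763 CPM at 24 h. In SIRT1intKO livers it ran from 2089 to 2724 CPM at 0 h, from 914 to 1379 CPM at 6 h and from 169 through 509.9 to 691 CPM at 24 h. In both genotypes each time point lay below 0 h without overlap. The fall at 24 h was 3.81-fold in WT (log2 fold change -1.93 ± 0.35, adjusted p = 0.000112) and 5.34-fold in SIRT1intKO livers (-2.42 ± 0.29, adjusted p = 1.02e-07). At 6 h *Ces3a* was just outside the fold threshold in WT (-0.996 ± 0.29, adjusted p = 0.00787) and just inside it in SIRT1intKO livers (-1.04 ± 0.31, adjusted p = 0.00860), so the calls at 6 h separate nearly equal values. Leaving out SIRT1intKO replicate 5 at 6 h also ended the SIRT1intKO call.

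*Ces3b* moved with its copy. It ran from 437.5 to 754 CPM in WT livers at 0 h, from 133.9 to 230.2 CPM at 6 h, and held 27.7, 94.4, 123.8 and 141.0 CPM at 24 h. SIRT1intKO livers ran from 580.3 to 908 CPM at 0 h, held 197.9, 207.6, 236.2, 269.9 and 184.7 CPM at 6 h and ran from 15.7 through 67.9 to 115.0 CPM at 24 h. Groups after PHx and at 0 h did not overlap. The fall at 24 h was 5.72-fold in WT (log2 fold change -2.52 ± 0.39, adjusted p = 1.87e-05) and 12.6-fold in SIRT1intKO livers (-3.66 ± 0.33, adjusted p = 1.26e-09).

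The Ces2 group, whose enzymes include drug and acylglycerol esterases, had fitted changes at 24 h that ran from near 0 to the most negative of the family in SIRT1intKO livers. *Ces2a* was tightly spread at 0 h, from 313 to 357 CPM in WT and from 260.1 to 317.5 CPM in SIRT1intKO livers (n = 6 each). At 24 h the WT libraries held 127.5, 144.1, 159.3 and 123.9 CPM, and the SIRT1intKO libraries ran from 146.8 through 174.0 to 270.6 CPM. The WT groups did not overlap, whereas the highest SIRT1intKO library lay inside the 0 h range. The log2 fold change at 24 h was -1.26 ± 0.22 (adjusted p = 8.92e-05) in WT, a 2.39-fold fall. In SIRT1intKO livers it was -0.52 ± 0.18 (adjusted p = 0.0182), past the p threshold and inside the fold threshold.

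*Ces2e* ran from 79.8 to 174.6 CPM in WT and from 79.4 to 158.8 CPM in SIRT1intKO livers at 0 h. At 6 h it ran from 31.7 to 92.8 CPM in WT, and the SIRT1intKO libraries held 45.4, 83.5, 90.7, 110.1 and 38.7 CPM. At 24 h the WT libraries held 90.4, 45.9, 52.0 and 37.5 CPM, and the SIRT1intKO libraries ran from 54.9 through 106.1 to 194.2 CPM. All 4 groups after PHx overlapped with 0 h. In WT livers *Ces2e* fell 2.37-fold at 24 h (log2 fold change -1.24 ± 0.33, adjusted p = 0.00473), after 2.30-fold at 6 h (-1.20 ± 0.29, adjusted p = 0.00150). In SIRT1intKO livers the value was -0.69 ± 0.30 (adjusted p = 0.0711) at 6 h and -0.08 ± 0.27 (adjusted p = 0.831) at 24 h.

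*Ces2b* was the least abundant member. Its counts summed to 375 over the 6 WT libraries at 0 h, to 10 at 6 h and to 1 at 24 h, and 4 of 6 and 3 of 4 WT libraries after PHx were at 0. In SIRT1intKO livers the sums were 479, 58 and 6, with 1 of 5 and 4 of 7 libraries at 0. Corrected for depth, the ratio of 24 h to 0 h was 0.00374 (exact 95% interval 9.45e-05 to 0.0210) in WT and 0.00802 (0.00293 to 0.0176) in SIRT1intKO livers. At 6 h the ratio was 0.0300 (0.0143 to 0.0558) in WT and 0.143 (0.107 to 0.188) in SIRT1intKO livers. These intervals cover counting error only. *Ces2b* was called lower at both times in both genotypes. Of the 58 counts in SIRT1intKO livers at 6 h, 41 came from replicate 4, and the fitted log2 fold change was -2.82 with that library and -4.23 without it. Leaving out the highest library also moved it from -5.01 to -6.40 at 6 h and from -7.51 to -9.05 at 24 h in WT, and from -6.74 to -7.44 at 24 h in SIRT1intKO livers. At 6 h the libraries overlapped with 0 h. In WT livers 1 library at 0 h held only 0.358 CPM, and in SIRT1intKO livers replicate 4 at 6 h held 2.49 CPM, above the lowest 0 h value of 1.01 CPM. At 24 h they did not overlap.

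**Figure D2:**
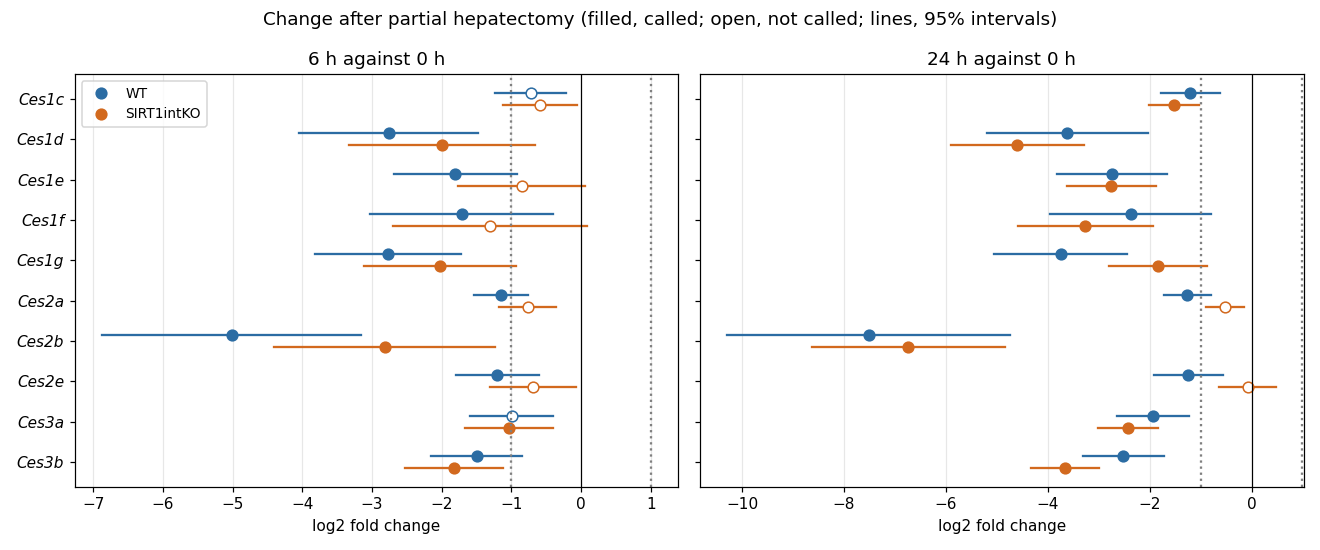
Log2 fold change (x axis) of each member (y axis) at 6 h and at 24 h against 0 h in WT (blue) and SIRT1intKO (orange) livers; filled circles were called, open circles were not, lines are 95% intervals and dotted lines mark the fold threshold of 1. At 24 h *Ces2e* in SIRT1intKO livers sits at -0.08 and *Ces2a* at -0.52, and the other 8 members lie at -1.53 or below.

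From 6 h to 24 h, 0 of 10 members were called higher in WT livers, against 4.44% of all tested genes, and 0 were called lower, against 2.72%. All 10 fitted changes in WT livers were below 0, with a median log2 fold change of -0.89 beside 0.01 for all genes. With edgeR, 2 members had an unadjusted p under 0.05 in WT livers, against 30.2% of all genes, and both were below 0. Whether the genotypes differ in the change from 6 h to 24 h was not tested. DESeq2 called 1 member lower, *Ces3b*, and 0 higher. Without WT replicate 4 at 6 h, or WT replicate 4 at 24 h, edgeR called 2 members lower, *Ces3a* and *Ces3b*. In SIRT1intKO livers 6 of 10 members fell further, against 3.91% of all genes, and 0 were called higher, against 6.7%. The 6 were *Ces1d*, *Ces1e*, *Ces1f*, *Ces2b*, *Ces3a* and *Ces3b*. *Ces1d* fell 6.08-fold over this interval (log2 fold change -2.60 ± 0.61, adjusted p = 0.00210) and *Ces3b* 3.57-fold (-1.84 ± 0.32, adjusted p = 0.000109). *Ces1g*, *Ces2a* and *Ces2e* had fitted changes above 0, at 0.19 ± 0.49, 0.25 ± 0.19 and 0.61 ± 0.29, and none was called. Without SIRT1intKO replicate 4 at 6 h, 4 of 10 members were called lower, and *Ces1f* (-1.73, adjusted p = 0.0657 in edgeR) and *Ces2b* (-2.52, adjusted p = 0.107) were not. With only the 6 h and 24 h groups in the fit, 4 of the 9 members tested were called lower, *Ces1f* was not (-1.93, adjusted p = 0.0602 in edgeR) and *Ces2b* was left out by the count filter. Without SIRT1intKO replicate 5 at 24 h the values were -3.28 for *Ces1d* and -3.10 for *Ces1f*, which is -1.96 with it. Of the 3 genes above 0, *Ces2e* had an unadjusted p under 0.05, and DESeq2 called 0 higher.

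Summed by group, the Ces1 members held 2970 ± 295 CPM in WT livers at 0 h (n = 6), 1375 ± 499 at 6 h (n = 6) and 956 ± 437 at 24 h (n = 4). In SIRT1intKO livers the same sum was 2670 ± 394 (n = 6), 1473 ± 455.5 (n = 5) and 694 ± 316 (n = 7). The Ces3 pair went from 2640 ± 376 through 1242 ± 281 to 645 ± 329 CPM in WT and from 3151.5 ± 366 through 1376.5 ± 208 to 506 ± 238 CPM in SIRT1intKO livers. The means of both sums were lowest at 24 h in both genotypes, and from 6 h to 24 h no Ces1 or Ces3 member was called in WT livers with edgeR and all libraries. The Ces2 members went from 469 ± 43.7 through 208 ± 61.5 to 195 ± 25.4 CPM in WT livers. In SIRT1intKO livers they went from 409.8 ± 40.8 through 242 ± 68.7 to 312 ± 63.8 CPM, so that the mean at 24 h stood above the mean at 6 h. At 24 h the 4 WT values of the Ces2 sum, from 161.4 to 217.9 CPM, overlapped the 7 SIRT1intKO values, from 201.7 to 376.8 CPM.

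**Figure D3:**
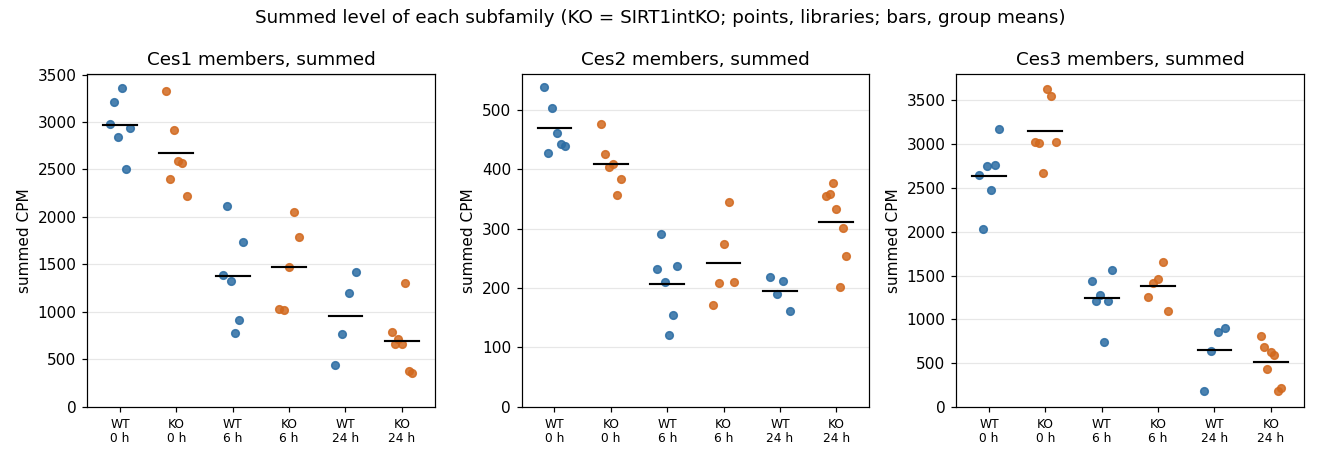
Summed CPM (y axis, from 0) of the 5 Ces1, the 3 Ces2 and the 2 Ces3 members in the 6 groups (x axis; WT blue, SIRT1intKO, written KO, orange); points are libraries and bars group means. The mean Ces1 sum is 1375 CPM at 6 h and 956 CPM at 24 h in WT livers, with overlapping libraries, and the mean Ces2 sum of SIRT1intKO livers is 242 CPM at 6 h and 312 CPM at 24 h.

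Genotypes were compared at each time. At 0 h, 0 of 10 members differed between SIRT1intKO and WT livers with edgeR, against 0% of all tested genes, 0 members had an unadjusted p under 0.05, against 1.07% of all genes, and DESeq2 called 0. The fitted differences ran from -0.32 (*Ces1e*) to 0.48 (*Ces3b*). At 6 h, 0 of 10 were called, against 0% of all genes, 1 member (*Ces2b*) had an unadjusted p under 0.05, against 6.52% of all genes, and DESeq2 called 0. The fitted difference at 6 h was above 0 for all 10, with a median of 0.27 beside 0.01 for all genes. Among the WT libraries at 6 h, replicate 4 was the lowest in 9 of the 10 members. Among the SIRT1intKO libraries at 6 h, replicate 4 was the highest in 9 of the 10. The 10 signs come from the same libraries and are not separate results.

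At 24 h, 0 of 10 members were called between genotypes, against 2.68% of all genes. With edgeR 3 members had an unadjusted p under 0.05, against 23.4% of all genes. They were *Ces1g*, *Ces2a* and *Ces2e*, all higher in SIRT1intKO livers, and DESeq2 called 2 of them, *Ces1g* and *Ces2e*. *Ces1g* averaged 7.84 ± 4.59 CPM in WT (n = 4) and 28.3 ± 21.5 CPM in SIRT1intKO livers (n = 7), a log2 fold change of 1.84 with a 95% interval of 0.66 to 3.02 and an adjusted p of 0.0527 in edgeR. The *Ces2e* means were 56.5 ± 23.4 and 112.6 ± 43.5 CPM, a log2 fold change of 1.00 with an interval of 0.34 to 1.65 and an adjusted p of 0.0589 in edgeR. For *Ces2a* the log2 fold change was 0.52 (interval 0.09 to 0.95) with an adjusted p of 0.128 in edgeR. Both groups overlapped for each of the 3 genes. The other Ces1 members and the Ces3 pair had fitted values below 0, from -1.22 for *Ces1d* (interval -2.51 to 0.06) to -0.30 for *Ces3a* (interval -0.94 to 0.33). *Ces2b* was too sparse at 24 h for a comparison.

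The calls of this comparison changed with the libraries used. With 1 library left out in turn, *Ces1g* was called in 8 of the 34 fits and *Ces2e* in 2, and *Ces1d* and *Ces1f* were each called in 1, the fit without SIRT1intKO replicate 5. In that fit 4 of 10 members were called between genotypes at 24 h, against 5.46% of all genes, where 0 members and 2.68% of all genes were called with all libraries. *Ces1d* was then lower in SIRT1intKO livers (log2 fold change -1.90, adjusted p = 0.0361 in edgeR), as was *Ces1f* (-2.24, adjusted p = 0.0106), and *Ces1g* (1.90, adjusted p = 0.0327) and *Ces2e* (1.11, adjusted p = 0.0191) were higher. Replicate 5 held 52.0 CPM of *Ces1d* and 148 CPM of *Ces1f*, where the next highest SIRT1intKO libraries held 19.03 and 32.5 CPM. Its depth of 17695667 counts was the median of its group. Its hepatocyte markers summed to 48863 CPM, near the low end of the group's range of 47627 to 85134 CPM. Its neutrophil markers summed to 22.1 CPM, the lowest of a group that reached 948 CPM. It was also the lowest of its group in the summed markers of adipocytes (15.2 CPM, next 90.5), monocytes and macrophages (51.1, next 88.8), Kupffer cells (75.4, next 84.6) and cholangiocytes (44.7, next 90.02). It was not the lowest for sinusoidal endothelium (99.4 CPM, group 69.7 to 129.3), stellate cells (182.4, group 107.8 to 204.3) or lymphocytes (0.704, the highest). Markers of neutrophils as a list summed to 7.32 to 107.6 CPM in WT livers at 24 h and to 22.1 to 948 CPM in SIRT1intKO livers, with 6 of 6 detected in both. At 24 h the 5 adipocyte markers summed to 2.59 to 74.6 CPM (median 14.1) in WT livers. In SIRT1intKO livers they summed to 15.2 to 171.8 CPM (median 117.25). *Adipoq*, *Plin1*, *Retn* and *Lep* were at 0 in all WT libraries at 24 h, so the WT sum there was *Cidec* alone. The same 4 genes were at 0 in SIRT1intKO livers at 0 h. A sum carried by *Cidec* alone does not show adipocytes. The medians of the sum were 0.876 and 1.06 CPM at 0 h and 76.7 and 74.96 CPM at 6 h in WT and SIRT1intKO livers. The 6 monocyte and macrophage markers summed to 44.5 to 65.3 CPM in WT and to 51.1 to 221 CPM in SIRT1intKO livers at 24 h, and the 5 Kupffer cell markers to 18.2 to 93.8 CPM and to 75.4 to 273 CPM, all of them detected in both. The part of these cell types in the genotype comparison was not tested. Ces2 enzymes are also made by the intestine, and the 6 intestinal markers summed to 23.9 to 52.0 CPM in WT and to 43.0 to 308.0 CPM in SIRT1intKO livers at 24 h, with *Sis* at 0 in both. Of these markers 2 were tested. At 24 h against 0 h both were called higher in SIRT1intKO livers, and 1 of them in WT livers. Between genotypes at 24 h, 1 of the 2 was called, higher in SIRT1intKO livers, against 2.68% of all genes called in either direction. The interaction at 24 h called 0 of the 2. The part of the intestinal markers in the Ces2 values was not tested.

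**Figure D4:**
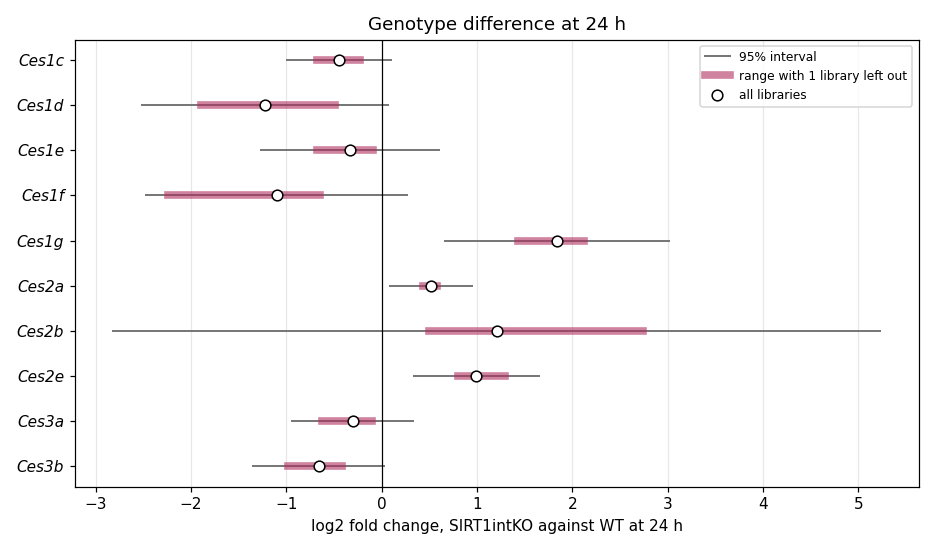
Log2 fold change between SIRT1intKO and WT livers at 24 h (x axis) for each member (y axis); circles use all libraries, thin lines are 95% intervals and thick bars span the values obtained with 1 library left out in turn. *Ces1g*, *Ces2a* and *Ces2e* stay above 0, and *Ces1f* reaches from -2.24 to -0.64 depending on the library left out.

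The interaction at 24 h was called for 0 of 10 members, against 0.00668% of all tested genes (1 gene), and at 6 h for 0 of 10, against 0% of all genes. At 24 h 4 members had an unadjusted p under 0.05 in edgeR, against 12.7% of all genes, and at 6 h 0 did, against 3.05%. DESeq2 called 0 at either time. The values at 24 h were 1.91 ± 0.74 for *Ces1g*, 1.17 ± 0.43 for *Ces2e*, 0.73 ± 0.28 for *Ces2a* and -1.14 ± 0.46 for *Ces3b*, with adjusted p-values of 0.274, 0.258, 0.274 and 0.295. The test of the difference itself therefore did not show that any member changed differently in the 2 genotypes.

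Across the 34 libraries the members moved together to different degrees, a description in which all libraries share the time course. The 45 pairwise correlations of log2 CPM had a median of 0.73. *Ces3a* and *Ces3b*, which share reads, were at 0.98, *Ces1d* and *Ces1f* at 0.96 and *Ces1c* and *Ces1e* at 0.95. *Ces2e* was at 0.12 with *Ces1c* and 0.13 with *Ces1f*, and at 0.71 with *Ces1g*, 0.63 with *Ces2a* and 0.57 with *Ces2b*. After the group means had been taken out the median was 0.49, *Ces1d* and *Ces1f* stayed at 0.93, and *Ces2e* and *Ces1c* were at -0.27. Among 7101 other genes, those most like the mean of the members were *Cyp1a2* (Pearson r 0.97), *Inmt* (0.96), *Ugt2b1* (0.96), *Hsd11b1* (0.96) and *Car3* (0.96), each over 34 libraries. *Cyp1a2*, a drug-oxidising cytochrome P450, went from 586 ± 104 CPM in WT livers at 0 h (n = 6) to 40.4 ± 24.8 CPM at 24 h (n = 4), and from 600.2 ± 62.8 to 47.4 ± 27.7 CPM in SIRT1intKO livers (n = 6 and 7).

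Of the 10 other *Ces* genes in the table, 4 were tested, *Ces1b*, *Ces2c*, *Ces2g* and *Ces4a*. At 24 h 3 of the 4 had fallen in WT and 2 in SIRT1intKO livers, against 7.4% and 11.1% of all genes called lower. *Ces4a* fell in both (log2 fold changes -2.88 and -4.82), to means of 0.636 and 0.261 CPM. *Ces2c*, a drug esterase of the Ces2 cluster, fell in WT livers at 24 h (log2 fold change -1.86 ± 0.59, adjusted p = 0.0147 in edgeR) and stood at 0.04 ± 0.47 in SIRT1intKO livers. It was the only *Ces* gene tested that edgeR called between genotypes at 24 h with all libraries. It stood at 12.6 ± 10.6 CPM in WT (n = 4) and 55.6 ± 22.6 CPM in SIRT1intKO livers (n = 7, log2 fold change 2.15 ± 0.58, adjusted p = 0.0281 in edgeR). Its interaction was not called (1.89 ± 0.74, adjusted p = 0.278 in edgeR). Of the 31-base words of *Ces2c*, 53.8% occur in other *Ces* genes, mostly the pseudogene *Ces2d-ps*. As assigned by Salmon, expected counts of *Ces2d-ps* averaged 0.0924 per library with a maximum of 1.2, beside a mean of 616 for *Ces2c*. *Ces2g* was not called at 24 h, at -0.32 in WT and -0.07 in SIRT1intKO livers, and *Ces1b* fell in both (-1.01 and -2.06).

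Other genes of lipid hydrolysis did not share one direction. Of 14 neutral lipid hydrolases and their partners, 1 was called lower and 5 higher at 6 h in WT livers, and 1 and 3 in SIRT1intKO livers, with medians of -0.06 and -0.0039. Of all tested genes, 8.4% and 8.7% were called lower at 6 h in WT and SIRT1intKO livers. The share of all genes called higher against 0 h is not given here. *Pnpla2*, the adipose triglyceride lipase gene, rose 1.65 and *Nceh1*, a cholesteryl ester hydrolase gene, rose 2.59 on the log2 scale at 6 h in WT livers, and *Lipg*, the endothelial lipase gene, rose 2.72. At 24 h 3 of the 14 were lower and 1 higher in WT, and 2 and 3 in SIRT1intKO livers, beside 7.4% and 11.1% of all genes called lower. *Lipc*, the hepatic lipase gene, fell in both (-1.58 in WT and -1.86 in SIRT1intKO livers), and *Aadac*, an endoplasmic reticulum esterase gene, fell by 1.41 in WT livers. Of 8 VLDL assembly genes, 1 was called in either genotype, *Tm6sf2* at 24 h, at 1.35 in WT and 1.26 in SIRT1intKO livers. Of 7 other plasma and endoplasmic reticulum esterases, 1, the paraoxonase gene *Pon1*, was lower at 24 h in each genotype (-1.74 and -1.95), beside the same 7.4% and 11.1% of all genes.

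Of 12 nuclear receptors and liver transcription factors, 2 were called lower at 6 h in each genotype, against 8.4% of all genes in WT and 8.7% in SIRT1intKO livers. *Nr1i3*, which encodes the xenobiotic receptor CAR, fell at 6 h in both (-1.07 in WT and -1.59 in SIRT1intKO livers). At 24 h 2 were called lower in SIRT1intKO livers, against 11.1% of all genes. They were *Cebpa* (-1.91 ± 0.28, adjusted p = 2.23e-06 in edgeR) and *Nr1h4*, the FXR gene (-1.10 ± 0.26, adjusted p = 0.000692 in edgeR). In WT livers these 2 genes stood at -0.28 and -0.88 and were not called. *Cebpa* was also lower in SIRT1intKO than in WT livers at 24 h (-1.37 ± 0.30, adjusted p = 0.0103 in edgeR). Of 8 hepatocyte markers, 3 were called lower at 24 h in each genotype, against 7.4% of all genes in WT and 11.1% in SIRT1intKO livers. The markers had medians of -0.74 in WT and -0.63 in SIRT1intKO livers. Their summed CPM was 42334 to 53849 in WT livers at 24 h and 77131 to 88320 at 0 h, without overlap. In SIRT1intKO livers it was 47627 to 85134 at 24 h and 68602 to 95854 at 0 h, and these ranges overlapped. Whether a change in hepatocyte content takes part in the fall of the carboxylesterases was not tested.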

How the data were processed

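RNA was measured by stranded mRNA sequencing of 34 mouse livers, grouped by genotype and time as the labels give them. The authors ran nf-core/rnaseq with STAR and Salmon (versions not given in the sources used here) against GRCm39, the build in the submitters' processing notes, and deposited expected counts per gene, of which 4.97% of the values were not whole. There was 1 value column matching no label, which was not used, and 1255 gene symbols that had lost the letter x were restored from the reference gene names. Libraries held 14892122 to 23480492 counts. Counts were rounded, filtered with filterByExpr and scaled by TMM, and edgeR 4.0.16 (R 4.3.3) fitted quasi-likelihood models with 1 mean per group over all libraries, with Benjamini-Hochberg adjustment over 14980 genes. Genes were called below an adjusted p of 0.05 if the log2 fold change was beyond 1 in either direction. Alternatives used DESeq2 1.42.0, other scalings and filters, only the groups compared, a replicate block and leaving out each library. Replicates are separately labelled mice, so p-values measure the spread between these samples. All members were named, with up to 3 called genes of each other list per comparison, and the members and lists were chosen with earlier results of these data known. The code was tested on simulated data.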

Additional observations from a re-analysis of the deposited data

Results flagged for a closer look

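Libraries were compared with the rest of their group by the gap between the end value and its neighbour, and 8 of 66 groups of values stood out. The cut-offs give about 1 in 20 by chance only for independent, normally spread values. These values are CPM of genes that move together in the same libraries, and *Ces2b* is near 0. The count of 8 therefore cannot be compared with that rate. SIRT1intKO replicate 5 at 24 h was high for *Ces1d*, at 52.0 CPM beside a next value of 19.03 CPM, and for *Ces1f*, at 148 CPM beside 32.5 CPM. SIRT1intKO replicate 4 at 6 h was high for *Ces1e*, at 145.3 CPM beside 59.5 CPM, for *Ces1g*, at 54.4 CPM beside 22.8 CPM, and for *Ces2b*, at 2.49 CPM beside 0.629 CPM. It was the highest library of its group in 9 of the 10 members. For *Ces2b*, which was near 0 after PHx, WT replicate 1 at 6 h stood at 0.510 CPM, WT replicate 2 at 24 h at 0.0571 CPM with the other 3 libraries at 0, and SIRT1intKO replicate 1 at 24 h at 0.181 CPM. The cause of these values was not tested.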

How the results depend on the processing

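DESeq2 gave the same counts of falls from 0 h as edgeR, and so did DESeq2 size factors in edgeR. A test against a log2 fold change of 1 (glmTreat) called 3 members lower at 6 h in WT, 1 at 6 h in SIRT1intKO and 6 at 24 h in WT livers, and 0 from 6 h to 24 h in SIRT1intKO livers, where that test asks for more than the fold threshold. From 6 h to 24 h in WT livers, DESeq2 and a minimum of 10 counts in every library, which leaves out *Ces2b*, each called 1 member lower. Between genotypes at 24 h, DESeq2 called 2 members, upper-quartile scaling 1 and the minimum of 10 counts 2. The cause was not tested. The counts in this paragraph stand without the share of all genes called under each setting. They do not show whether a setting called more genes in general. With 1 library left out in turn, members called lower numbered 7 to 9 at 6 h in WT, 4 to 6 at 6 h in SIRT1intKO, 9 to 10 at 24 h in WT and 8 at 24 h in SIRT1intKO livers. From 6 h to 24 h they numbered 0 to 2 in WT and 4 to 7 in SIRT1intKO livers, and between genotypes at 24 h 0 to 4 members were called. Values near 0 changed sign: *Ces2e* at 24 h against 0 h in SIRT1intKO livers (-0.27 to 0.037), *Ces2a* (-0.20 to 0.13) and *Ces2e* (-0.34 to 0.13) from 6 h to 24 h in WT, *Ces1g* from 6 h to 24 h in SIRT1intKO livers (-0.19 to 0.72) and the *Ces1e* interaction at 24 h (-0.37 to 0.23), which was 0.00128 in DESeq2 and 0.30 with the replicate block.

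Replicate numbers did not pair the samples: deviations of same-numbered libraries had a median correlation of -0.0036 over 76 pairs, and 6 pairs were over 0.1. With the replicate block 7 members were called lower at 6 h in WT livers, the loss being *Ces1f* (adjusted p = 0.0503 in edgeR), and no other count of calls changed. *Ces2b*, at 0 in 3 of 4 WT libraries at 24 h, is limited by depth.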
